A study of Mus musculus with 30 samples.

Results

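The RNAs described here were recovered with A1CF from hepatocytes of A1cf-transgenic mice in 5 of 10 CLIP libraries, and they were set beside the RNA of hepatocytes of the same genotype in 3 pools. These 8 libraries are part of a series of 30. CLIP joins RNA to the protein that holds it with ultraviolet light, after which the protein is precipitated and the attached RNA fragments are sequenced. For all CLIP libraries the labels give 400 mJ per square centimetre at 254 nm. For the RNA pools they give no irradiation. The 5 libraries (2, 5, 7, 8 and 9) were chosen because Pantr1, a long noncoding RNA, took more than 5% of their counts. They are called the Pantr1 set below. The gene level that chose them is therefore a description and supports nothing. All groups of hepatocytes came from mice aged 12 weeks, either A1cf_Tg/+ or wild-type C57BL/6J, and were plated on collagen overnight. The liver groups used further down came from mice aged 12 months: A1cf_Tg/+ (4 pools) beside C57BL/6J (4 pools), and A1cf_-/- (3 pools) beside C57BL/6NJ (3 pools). Each RNA pool held RNA of 3 to 4 mice and was selected with oligo(dT). The labels do not say how many mice gave each CLIP library, which promoter drives the transgene, or whether CLIP libraries came from separate cultures. Spreads between them may therefore be technical.

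A1CF is an RNA-binding protein of liver and intestine. It is best known as a partner of APOBEC1, the deaminase that changes a cytidine of Apob mRNA so that a shorter form of apolipoprotein B is made. In that reaction a short stretch downstream of the edited base, the mooring sequence, positions the editing complex. No library of a control precipitate is among those used here, so a CLIP share is a level and not a measure of binding.

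Of the 12-week hepatocyte pools, the transgenic ones held the main hepatocyte RNA, albumin (Alb), at 36945 ± 5178 CPM (SD, n = 3), where CPM is the count scaled to a library total of 1000000. A1cf itself stood at 7.36, 9.83 and 10.5 CPM in transgenic pools 1 to 3. Its mean was 9.23 CPM there and 9.35 in wild-type hepatocytes, a log2 fold change of 0.02 ± 0.24 (SE, edgeR adjusted p = 0.962, n = 3 each), so the gene counts do not show a rise with the label. The transgenic hepatocyte pools held 26144213 to 37211328 counts. The CLIP libraries of the Pantr1 set held 6151 to 7209 counts in 1129 to 1323 genes, 34085 counts in all. A gene with no count in any of the 5 could still have a share of up to 0.0088%, or 88.0 CPM, taking 3 counts as the limit and covering counting error only.

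The sequences that bear on the known role of A1CF are the mooring sequence of Apob and the only other copy of it in a gene recovered here. The letters TGATCAGTATA were searched on the sense strand in the longest GENCODE M21 transcript of each gene, and 13 of 40254 genes held them. Both sites below are in coding exons on GRCm38, exon 26 of Apob at chr12:8008047-8008071 on the plus strand and exon 42 of Fasn at chr11:120808171-120808195 on the minus strand. Capitals mark the mooring sequence.
Apob: cgcgatacaattTGATCAGTATAtt
Fasn: gctccgggcagcTGATCAGTATAag
The site of Fasn, which encodes fatty acid synthase, shares these 11 bases with that of Apob. Apob had 0 counts in each of the 5 CLIP libraries, while its RNA stood at 578, 704 and 3157 CPM in transgenic pools 1 to 3. Against the limit of 3 counts over the set, its CLIP share was at least 16.8-fold lower than its mean RNA level of 1479 CPM, and at least 7.28-fold lower without pool 3, whose absence leaves a mean of 641 CPM. Fasn had 1 count in each of libraries 2, 8 and 9 and none in the other 2, beside 391 ± 19.3 CPM of RNA (SD, n = 3). A1cf had 0 CLIP counts too, but at 9.23 CPM its RNA lies under the 88.0 CPM that these libraries could show.

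The choice of libraries left a wide gap. Pantr1 took 16.1% of counts in library 2 (95% Wilson interval 15.2 to 17.0), 17.0% in library 5, 16.5% in library 7, 18.5% in library 8 and 15.9% in library 9 (15.1 to 16.8). In the other 5 libraries it took 0.113 to 0.302%, so that 0.302% was the value just outside the threshold and 15.9% the value just inside it. Itpripl2, the gene of an inositol trisphosphate receptor-interacting protein, went the other way, with 0 to 0.0555% in the set and 10.5 to 14.5% outside it.

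Library 9 stood apart from the other 4 of the set, which were close to each other. Over the genes with an expected count of at least 5, the chi-square per degree of freedom between 2 libraries was 1.63 to 2.57 in the 6 pairs among libraries 2, 5, 7 and 8, and 13.9 to 15.7 in the 4 pairs with library 9. In the 10 pairs among the other 5 CLIP libraries it was 3.38 to 12.3, so libraries outside the set also differed among themselves. A value near 1 is sampling noise of independent molecules. Reads copied by PCR are not independent, so these values cover counting error only and do not show whether libraries 2, 5, 7 and 8 come from separate samples. The 5 were kept as the labels give them. Averaging libraries 2, 5, 7 and 8 as 1 sample beside library 9 gave 53.5% for the 15 genes of highest share below. Between the Pantr1 set and the other libraries the chi-square per degree of freedom was 75.9 to 113. Pantr1, the gene that chose the set, is among the genes counted, so a high value there is partly fixed by the choice. There were 7 genes with at least 50 counts in library 9 and at most 2 in the other 4 together, and they held 13.7% of its counts: Gm5529 (239 counts), the diacylglycerol kinase gene Dgki (219), the matrix protein gene Matn4 (155), Rhbdl3 (95), Cep63 (81), Hid1 (81) and BC035044 (68). Libraries 2, 5, 7 and 8 had 0 genes of this kind each. These genes were named after their values were seen. None of them is ranked below, since a ranked gene had to appear in at least 3 libraries. They do count in library totals and in the shares over all genes given by RNA level and by gene class.

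In all, 3501 genes had a count in the set, of which 692 had one in at least 3 of the 5 libraries. Of these 692, 269 were found in 3 libraries, 179 in 4 and 244 in all 5. They held 86.0 ± 6.27% of the counts (SD, n = 5), with 74.8% in the lowest library. Most were seen on few counts: 419 had under 10 over the set and 52 had at least 50, with a median of 7. Genes just inside the rule, in 3 libraries, had 3 to 15 counts, and those just outside, in 2 libraries, had 2 to 157.

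The CLIP counts were dominated by a short list of genes. Of the 15 highest, 8 stood under 1 CPM of RNA in the hepatocytes and 6 at 10 CPM or more. Of all genes 71.7% stood under 1 CPM, and of those with a count in at least 3 of the 5 libraries 35.8% did. The 15 genes of highest share held 55.2 ± 3.14% of CLIP counts (SD, n = 5, 50.7 to 58.5%), but 0.0675% of the RNA counts of transgenic hepatocytes. In the other CLIP libraries the same genes held 3.33%. A share is not divided by gene length. Ranked by share per kilobase of the deposited length, 12 of the 15 stayed in the first 15.

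Pantr1 (ENSMUSG00000060424, GRCm38 chromosome 1, 42590782 to 42694842, minus strand) lies beside the neural transcription factor gene Pou3f3 and is known from the developing brain. It had 1110, 1046, 1191, 1287 and 1089 counts in libraries 2, 5, 7, 8 and 9, a mean share of 16.8 ± 1.03%. Its RNA had 0 counts in the 3 transgenic pools and 1 count in all 20 RNA libraries, which hold 540525502 counts. Against a floor of 3 RNA counts over the 3 pools (0.0312 CPM), its CLIP share was at least 5385261-fold higher than its RNA level. This bound scales with the RNA counts searched, and it was 3302295-fold without pool 1 and 3546431-fold without pool 2, as for other genes with no RNA count in proportion.

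Wnt11 (ENSMUSG00000015957, chromosome 7, 98835112 to 98855195, plus strand), a secreted Wnt ligand, came next. It had 748, 714, 745, 769 and 770 counts, a mean share of 11.01 ± 0.475%, beside 0.914, 1.07 and 0.535 CPM of RNA. Its lowest share, 10.3%, was above the highest of the third gene, 6.15%, and its highest, 11.6%, was below the lowest of Pantr1. These 2 genes together held 27.8 ± 1.20% of all counts of the set.

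Me1, the cytosolic malic enzyme that supplies NADPH for fat synthesis, was the gene of highest share that hepatocytes also held in plenty. Its counts were 367, 375, 443, 401 and 209, a mean of 5.27 ± 1.29%, beside 99.0, 113 and 114 CPM of RNA. Library 9 was low, at 3.05% against 5.31 to 6.15% in the other 4. Myh7b, a myosin heavy chain of heart and slow muscle, had 326, 364, 295, 333 and 281 counts (4.72 ± 0.744%), and its shares overlapped those of Me1. Its RNA was at 0.0269, 0.0609 and 0.344 CPM.

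Eif2ak3 and Acvrl1 had similar shares at very different RNA levels. Eif2ak3, the kinase PERK that responds to stress of the endoplasmic reticulum, had 195, 185, 210, 252 and 172 counts (2.97 ± 0.405%) and 36.8 CPM. Acvrl1, a receptor of bone morphogenetic proteins known from endothelial cells, had 192, 185, 175, 190 and 172 counts (2.69 ± 0.230%) and 2.61 CPM. The shares of the 2 genes overlapped over the 5 libraries.

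A further 8 genes of the first 15 held between 0.751 and 1.449% each. They were Zdhhc22 of the palmitoyltransferase family (1.449 ± 0.247%), the tight junction adhesion molecule F11r (1.22 ± 0.357%), the teneurin Tenm2 (1.18 ± 0.190%), the proton pump subunit Atp6v0a4 (1.17 ± 0.0750%), the lipid-binding protein gene Sec14l2 (1.06 ± 0.123%), the ceramidase Acer1 (0.834 ± 0.144%), the ubiquitin ligase family member Trim35 (0.768 ± 0.0711%) and the cadherin Cdh24 (0.751 ± 0.0778%). Zdhhc22 and Acer1 had 0 RNA counts in the transgenic pools and Tenm2 had 1. F11r was the highest of them in RNA, at 321 ± 13.5 CPM (SD, n = 3), and its share was lowest in library 9 (0.613% against 1.24 to 1.53%). Across the 15 genes the coefficient of variation over the 5 libraries was 4.31 to 29.4%, highest for F11r and Me1.

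**Figure D1:**
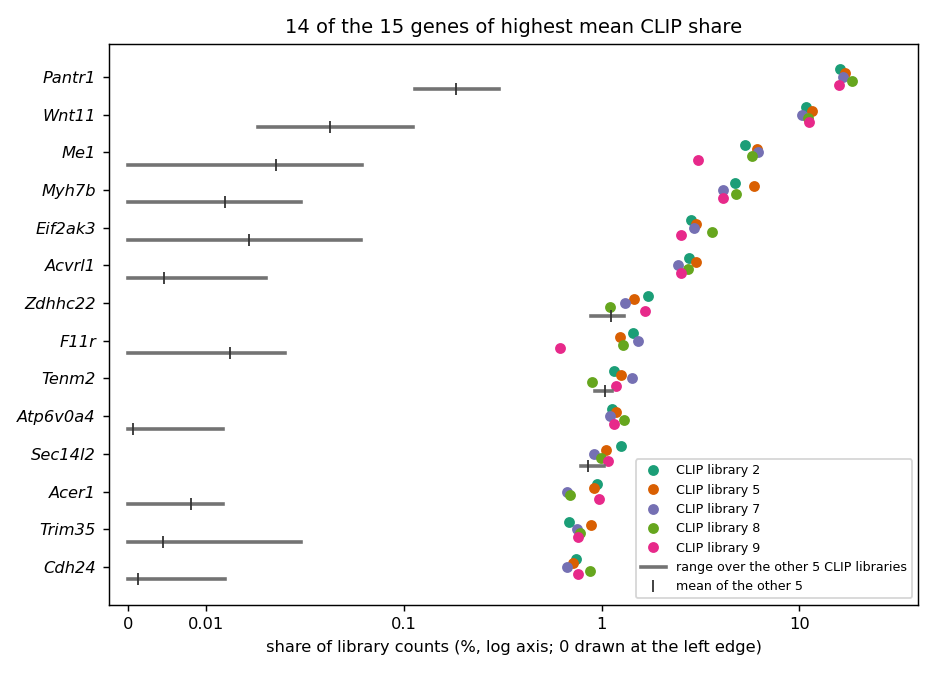
Share of library counts (percent, log axis, 0 drawn at the left edge) for 14 of the 15 genes of highest mean share; each colored point is 1 of the 5 CLIP libraries of the Pantr1 set, and the grey bar and tick give the range and mean of the other 5 CLIP libraries. Pantr1 lies at 15.9 to 18.5% in the set, and Zdhhc22, Tenm2 and Sec14l2 are the genes whose grey bars reach their points.

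For 12 of these 15 genes every library of the set was above every other CLIP library. The 15 were picked for their high shares in the set, and Pantr1, which split the libraries, is among the 12. This count is therefore largely fixed by the choice, and it was not made over all 692 genes. The exceptions were Zdhhc22, Tenm2 and Sec14l2, which the other libraries held at a mean of 1.11%, 1.04% and 0.851%. Of the 692 genes, 248 also had a count in at least 3 of the other 5 libraries, which is 35.8% of the 692 and 38.2% of the 650 genes found so there, and 247 had no count there at all. The 2 sets were split by Pantr1 and are described here without a test.

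Counting could mix neighbours. Of the 15 genes, 8 share exon positions with another gene, such as Myh7b with Trpc4ap on the opposite strand and Wnt11 with Gm8398, and 181 of the 692 do so, 161 of them with a gene on the other strand. The strand setting is not given in the sources used here, so reads of these pairs cannot be told apart.

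The ranking by ratio of CLIP share to RNA level divides by that level, so its rule favours genes with almost no RNA in hepatocytes. Of its 15 first genes, 8 had 0 RNA counts in the transgenic pools, so that their ratios are lower bounds against the floor. Among all 692 ranked genes 79 had 0 RNA counts there, and among all 41388 genes 19313 did. Of the 15 first genes, 7 were also among the first 15 by share (Pantr1, Zdhhc22, Tenm2, Myh7b, Acer1, Atp6v0a4 and Wnt11). Zdhhc22 was at least 464613-fold and Acer1 at least 267432-fold above the floor. Myh7b stood at 327927 times its RNA level, with a counting interval of 216729 to 732670 from 12 RNA counts, of which all but 3 lay in pool 3. Without that pool the ratio was 1076196. Atp6v0a4 stood at 176154 times (78135 to 400418) on 7 RNA counts, all but 1 in pool 1, and at 117436 times without pool 2. Wnt11 stood at 131348 times (102944 to 160220), on 83. These intervals are for RNA counts summed over the pools, while the ratios use the mean RNA level of the pools.

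Other genes of this ranking belong to varied families. Olfr398, an olfactory receptor (at least 102698-fold), Csrnp3, a nuclear protein (at least 69233-fold), Tlx3, a homeobox gene of neurons (at least 64985-fold), and the lincRNA 1700104B16Rik (at least 58692-fold) had 0 RNA counts. In CLIP libraries 2, 5, 7, 8 and 9 Olfr398 had 26, 32, 27, 23 and 0 counts, so its bound rests on 4 libraries, without library 9. Tenm2, A4gnt, a glycosyltransferase of gastric mucin, and Gm26688, antisense to Tfap2a, had 1 RNA count each. On its 1 count the ratio of Tenm2 was 1134694 with a counting interval of 203655 to 44818010, which shows how little 1 count fixes it. Its place in the ranking rests on the value at the floor, 378231. Ptchd1, a patched-domain protein gene, had 3 RNA counts and a ratio of 202410 (69261 to 981506) on its summed counts. It was ranked at 191012, on its mean RNA level.

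Over all 692 genes the median ratio was 43.7, with genes whose mean RNA level was under the floor set to it. The ratio was 10 or more for 436 genes, 100 or more for 299 and 1000 or more for 194. It was 10 or more in each of the 5 libraries for 168. It lay between 1 and 10 for 205 genes and under 1 for 51. These counts follow from the depth as well: a gene seen in 3 libraries has at least 3 of 34085 counts, which already equals about 88.0 CPM. The lowest ratios were those of the secreted chaperone clusterin (Clu, 0.0138), the cytoskeletal linkers Plec (0.134), Jup (0.154) and Tln1 (0.169).

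**Figure D2:**
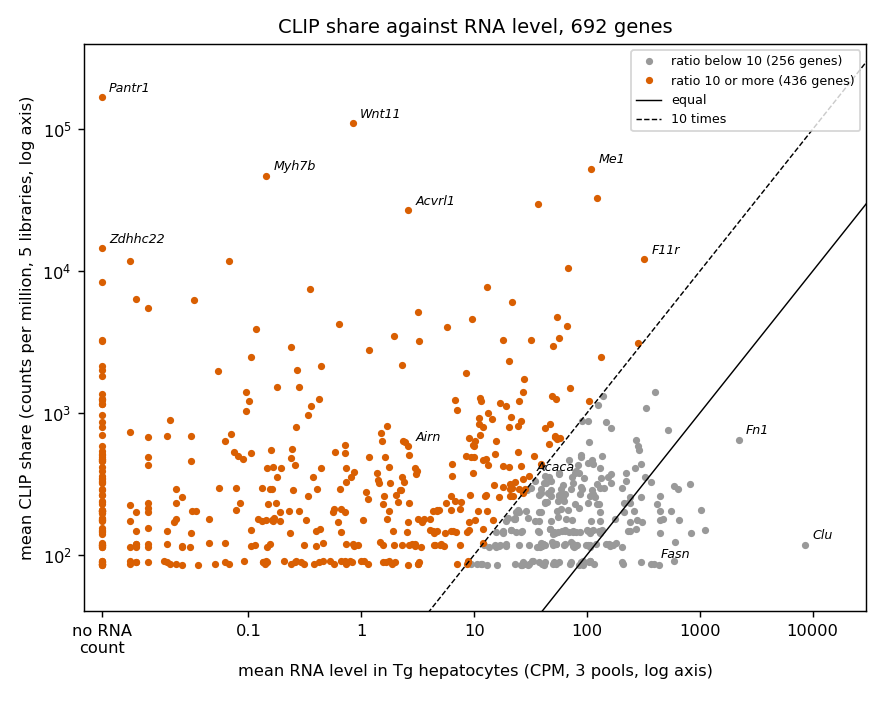
Mean CLIP share (scaled as CPM, 5 libraries) against mean RNA level (CPM, 3 transgenic hepatocyte pools) for 692 genes, both on log axes, with genes of no RNA count drawn at the left edge; lines mark equal values and a ratio of 10. Genes of ratio 10 or more (436) are orange, and the highest shares stand at every RNA level from none to 321 CPM.

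Within the 692 genes, which had to reach a CLIP count in 3 libraries, CLIP share and RNA level had little relation in rank. Spearman's rho was -0.0132, and it was -0.0483 to -0.00793 when the share of 1 library was used at a time. The genes are not independent replicates, most have few counts, and all points share the same libraries, so rho is a description. Over all genes, the share that entered the 692 was 0.409% with no RNA count, 2.46% at 0.1 to 1 CPM, 3.59% at 10 to 100, 5.37% at 100 to 1000 and 4.21% above 1000, beside 1.67% of all 41388 genes.

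Grouping all genes by RNA level shows where the CLIP counts went. Genes with no RNA count in the transgenic pools held 25.04 ± 0.815% of CLIP counts (SD, n = 5), or 8.25% without Pantr1. Genes at 0.1 to 1 CPM held 22.6 ± 1.10% of CLIP and 0.140% of RNA counts. At the other end, the 95 genes above 1000 CPM held 29.1 ± 1.37% of RNA (SD, n = 3) but 0.138 ± 0.0393% of CLIP counts. Of those 95, 4 (4.21%, against 1.67% of all genes) were among the 692, on low counts: Fn1 (fibronectin, 22 counts), H6pd (7), Plec (5) and Clu (4).

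**Figure D3:**
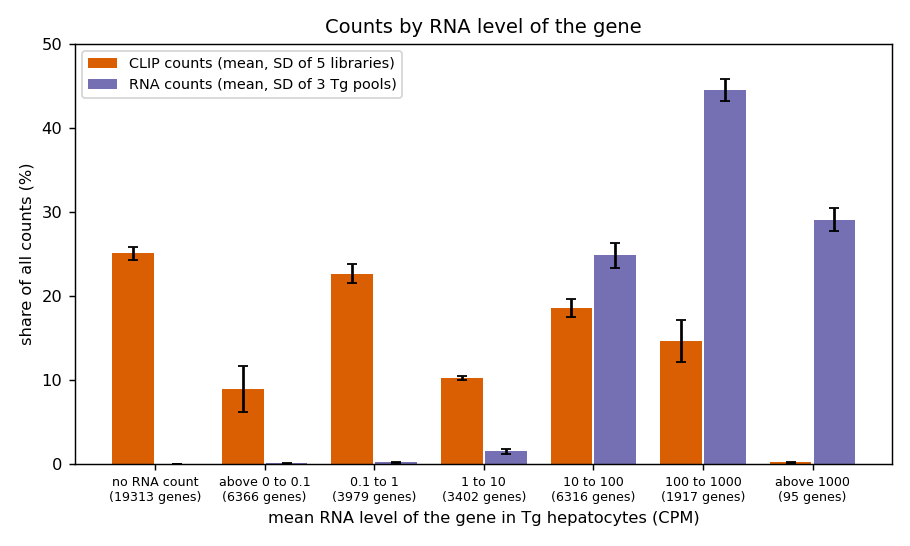
Share of all counts (percent) in CLIP (orange, mean and SD of 5 libraries) and RNA (purple, mean and SD of 3 transgenic pools) for genes grouped by mean RNA level in CPM. Genes at 100 to 1000 CPM hold 44.5% of RNA and 14.6% of CLIP counts, while genes with no RNA count hold 25.04% of CLIP.

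Among the 692 genes, 79 had 0 RNA counts in the transgenic pools, 60 of these also had 0 in wild-type hepatocytes, and 22 had 0 in all 20 RNA libraries. Since RNA pools were selected with oligo(dT), RNA without a poly(A) tail would be missed there. Whether this bears on any of these genes was not tested. The highest of the 22 was Olfr398, with 108 CLIP counts, followed by the sialidase gene Neu4 (43) and Piwil1 (42), a PIWI protein of the germ line.

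The most abundant RNAs of the hepatocytes held few CLIP counts for their level. The 10 highest RNAs included those of the secreted proteins albumin, hemopexin (Hpx), apolipoprotein E (Apoe), complement C3, clusterin and lipocalin 2 (Lcn2), besides Actb, Sprr1a, Gm42418 and mt-Co1. Alb had 2 CLIP counts over the 5 libraries at 36945 CPM, Apoe 1 at 13499 CPM, Sprr1a 1 and Clu 4. The other 6 had 0, and for Hpx, at 15656 CPM, the CLIP share was at least 178-fold lower than the RNA level. The 100 highest RNAs held 0.141% of CLIP and 29.6% of RNA counts. Of them 87.0% had no CLIP count, beside 91.5% of all genes and 79.1% of the 2012 genes at 100 CPM or more.

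Most gene lists of hepatocyte function held a smaller share of CLIP than of RNA counts. The 26 secreted hepatocyte proteins held 5 counts, 0.0142% of CLIP against 11.03% of RNA. The 20 hepatocyte enzymes and identity factors held 5 counts (0.0147% against 0.373%), and 15 genes of lipoprotein assembly and clearance held 6 (0.0183% against 0.373%). None of these 3 lists had a gene among the 692, which took in 1.67% of all genes and 5.32% of those at 100 CPM or more, so that a short list can have none. The 37 mitochondrially encoded genes had 0 CLIP counts and 1.39 to 3.48% of RNA counts, and 83 ribosomal protein genes held 0.00292% of CLIP and 0.897% of RNA. Of 12 genes of apoB mRNA editing and its partners 1 was recovered, Hnrnpab, an RNA-binding protein of that complex, with 4, 1, 0, 1 and 0 counts in libraries 2, 5, 7, 8 and 9. The 30 splicing factors and hnRNPs held 5 counts, 0.0148% of CLIP against 0.300% of RNA.

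Fatty acid and triglyceride synthesis was one of the 2 lists with a larger share in CLIP than in RNA that held over 10 counts. Its share was 5.33% of CLIP against 0.589% of RNA, and Me1 gave 1795 of its 1815 counts. The acetyl-CoA carboxylase gene Acaca had 1, 4, 2, 4 and 1 counts at 30.7 CPM of RNA, a ratio of 11.7. The lipogenic transcription factor gene Srebf1 (4 counts, ratio 0.755) and Fasn (3 counts, ratio 0.222) were below their RNA levels, Acly had 1 count, and the other 15 of the 20 genes had none. Nuclear long noncoding RNAs took 16.9% through Pantr1. Of the other 16 such RNAs, Airn, the imprinted antisense of Igf2r, had 3, 3, 4, 7 and 3 counts (ratio 223) and Miat 1. Malat1, at 678 CPM, and Neat1, at 71.3 CPM, had 0. The RNA of Neat1 lies under the 88.0 CPM that these libraries could show. For Malat1 the CLIP share was at least 7.71-fold lower than the RNA level, and at least 3.25-fold without transgenic pool 3.

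Markers of other cells had at most 7 counts a list in the CLIP libraries. On such counts the share of CLIP was above that of RNA for 3 lists and below it for the others. Neuronal genes had 5 counts over 17 genes (0.0145% of CLIP, 0.00196% of RNA), and Lsamp (2), Grin2b and Rbfox3 were among those detected, in 1 library each. Liver endothelial genes had 7 counts in 6 of 11 genes (0.0204% and 0.00819%) and skeletal muscle genes 2 counts in 2 of 7 (0.00584% and 0.00278%). Stellate cell and fibrosis genes had 7 counts over 14 genes (0.0212% and 0.0486%) and Kupffer cell genes 1 over 12 (0.00287% and 0.0483%). Among lymphocyte and neutrophil genes S100a9 alone was recovered, with 3 counts (0.00907% and 0.0562% for the list), and cholangiocyte, red cell and oncofetal lists had 0. Abundant small structured RNAs and their hosts had 1 count, from the telomerase RNA Terc.

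**Figure D4:**
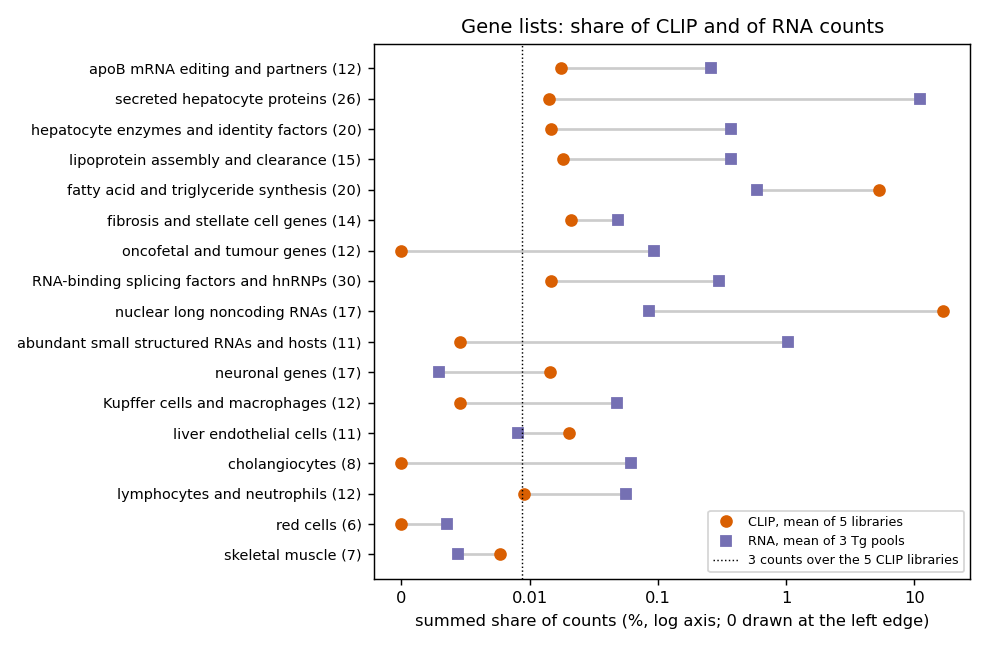
Summed share of counts (percent, log axis, 0 drawn at the left edge) of 17 gene lists in CLIP (orange circles, mean of 5 libraries) and in transgenic hepatocyte RNA (purple squares, mean of 3 pools), with the number of genes in brackets and a dotted line at 3 CLIP counts. Secreted hepatocyte proteins lie at 0.0142% in CLIP and 11.03% in RNA, and nuclear long noncoding RNAs lie at 16.9% in CLIP through Pantr1.

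By gene class, 631 of the 692 were protein coding, 20 antisense, 18 lincRNA and 11 processed pseudogenes. Protein-coding genes held 78.1% of CLIP and 98.0% of RNA counts, and lincRNAs 18.1% and 1.15%.

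Sequence features that the choice did not use are given beside those of all hepatocyte RNAs. A1CF is known to bind AU-rich RNA, so short AU-rich words were counted on the sense strand of the longest transcripts. The word TAATTA and its variant with a final G, TAATTG, cannot start at the same base, and either can share bases with the core of AU-rich elements counted last. TAATTA stood at 0.156 per kilobase in the 690 genes with a transcript, at 0.127 in the 15 of highest share and at 0.189 in the 11679 genes at 1 CPM or more. TAATTG stood at 0.143, 0.0636 and 0.164, and the AU-rich core ATTTA at 0.983, 0.445 and 1.11. Of the 692, 40.0% of those with a transcript held TAATTA, against 24.9% of all 40254 genes and 40.0% of genes at 1 CPM or more. These are whole transcripts, since the tables give no position of a read within a gene. Median GC content was 50.8% in the 690, 52.4% in the 15 and 49.7% in the genes at 1 CPM or more, and median transcript length 3954, 3462 and 3359 bases.

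Pantr1 itself held TAATTG at 2 places in its longest transcript, and Wnt11 held the word TAATTA at 1. The libraries passed through 40 and then 35 PCR cycles. The last 8 bases of the primer for cDNA synthesis pair with GTGTCAGT, which 10.3% of the 690 and 7.09% of the genes at 1 CPM or more held, at 0.0239 and 0.0197 per kilobase. Of the 51 genes of at least 50 counts 5.88% held it, at 0.0125 per kilobase, and of the 15 of highest share 6.67%, at 0.0159 per kilobase. Its part in the recovery was not tested.

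Whether the recovered genes differ in RNA level with the A1cf genotype was asked in the 3 RNA comparisons, which the choice of libraries did not use. Here all 692 genes stand for the CLIP set, and tests were edgeR quasi-likelihood tests over all genes with Benjamini-Hochberg adjustment. Of the 15 genes of highest share, 10, 8 and 10 were tested in the hepatocyte, transgenic liver and knockout liver comparisons, and 0 were called in each. Over the CLIP genes tested, 144, 100 and 115 had an unadjusted p below 0.05, which is 28.8, 19.9 and 21.9%, beside 28.9, 20.3 and 18.4% of all genes tested. DESeq2 called 66, 51 and 37 CLIP genes, 13.2, 9.51 and 7.05% of those it gave an adjusted p, beside 13.2, 8.07 and 5.3% of all.

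In transgenic against wild-type hepatocytes 500 of the 692 genes passed the filter on low counts. Of these, 4 were called higher and 6 lower, 2.0%, where 3.15% of all 13770 tested genes were called (1.53% higher and 1.62% lower). The groups did not overlap in 32.6% of the CLIP genes and in 32.9% of all. The median log2 fold change was -0.06 in the CLIP genes and -0.02 in all. Klf4, a zinc finger transcription factor, rose from 2.73, 2.69 and 3.69 CPM in wild-type pools to 9.77, 17.8 and 16.9 in transgenic pools (2.28 ± 0.29, adjusted p = 0.0192). CPM values of the comparisons are scaled by TMM.

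Cebpd, a transcription factor of the acute-phase response, rose from 47.1, 28.2 and 27.4 CPM to 108, 117 and 86.9 (1.60 ± 0.25, adjusted p = 0.0298), without overlap. Sdk1, a sidekick adhesion molecule, rose by 2.66 ± 0.34 at a low level (0.218 to 0.243 CPM to 1.18 to 1.86), and Lysmd2 rose by 0.91 ± 0.15. Msn, the membrane linker moesin, fell from 557, 491 and 595 CPM to 300.3, 308 and 275 (-0.89 ± 0.13, adjusted p = 0.0273), and the unconventional myosin Myo6 fell by 0.89 on the log2 scale. Their CLIP counts were low, 6 for Klf4, 30 for Cebpd, 11 for Sdk1, 22 for Lysmd2, 18 for Msn and 7 for Myo6. The count of 10 rested on single pools: it became 1, 0 and 185 without transgenic pool 1, 2 and 3, and 1, 0 and 0 without wild-type pool 1, 2 and 3. All 6 genes named lost their call without transgenic pool 2 or wild-type pool 2 or 3.

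In transgenic against C57BL/6J livers 503 CLIP genes were tested. There were 3 called higher and 4 lower, 1.39%, beside 1.33% of all 14110 genes (0.971% higher and 0.361% lower). With library totals in place of TMM, which moved the median of all genes by 0.14 on the log2 scale, the same number of calls split into 6 higher and 1 lower. Groups did not overlap in 13.1% of CLIP genes and 11.7% of all, and the medians were -0.02 and -0.00. Adam23, a membrane protein of neurons, rose from 35.6, 30.6, 31.9 and 28.2 CPM to 59.2, 77.6, 53.8 and 70.8 (1.05 ± 0.14, adjusted p = 0.0121).

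Dmrta1, a DMRT-family transcription factor gene with 133 CLIP counts, fell from 3.50 to 5.37 CPM to 0.308 to 1.42 (-2.30 ± 0.41, adjusted p = 0.038). Dlgap1, a scaffold protein of synapses with 75 CLIP counts, fell by 0.95 on the log2 scale, Gch1, the first enzyme of tetrahydrobiopterin synthesis, by 0.61, and Mxi1, a repressor of the Myc network, by 0.50. The matrix protein gene Svep1 rose from 2.25 to 5.61 CPM to 7.197 to 14.4 (1.71 ± 0.34, adjusted p = 0.048). Wild-type pool 2 held skeletal muscle RNA, with 7 muscle genes summing to 1726 CPM against 1.497 to 2.34 in the other 7 pools, and was also the highest of its group for Svep1. The count of 7 ranged from 0 to 18 when 1 pool was left out: 18, 12, 2 and 0 without transgenic pools 1 to 4, and 1, 16, 0 and 0 without wild-type pools 1 to 4. Adam23, Dmrta1, Dlgap1, Gch1, Mxi1 and Svep1 each lost the call without transgenic pool 4 or wild-type pool 3 or 4.

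In knockout against C57BL/6NJ livers A1cf RNA fell from 237, 207 and 197 CPM to 24.4, 19.7 and 29.4 (-3.12 ± 0.15, adjusted p = 1.59e-05). Of 526 tested CLIP genes 11 were called higher and 12 lower, 4.37%, against 2.98% of all 15942 genes (1.5% higher and 1.48% lower). Groups did not overlap in 26.6% of CLIP genes and 24.3% of all, and the medians were 0.00 and -0.01. Ttpa, the tocopherol transfer protein of the liver, fell from 339, 322 and 312 CPM to 134, 148 and 156 (-1.15 ± 0.09, adjusted p = 0.000266). Fam234b fell from 36.1, 45.2 and 34.7 CPM to 14.2, 17.8 and 15.1 (-1.30 ± 0.13, adjusted p = 0.001). Pex5, the import receptor of peroxisomes, fell by 0.72 on the log2 scale, and Ctcflos, the antisense RNA of Ctcfl, rose by 0.90 ± 0.10.

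Ppl, the desmosome linker periplakin, was the called gene with over 100 CLIP counts among those of smallest p. It had 111 CLIP counts, and its RNA fell from 39.7, 56.2 and 75.7 CPM to 22.7, 20.98 and 22.8 (-1.37 ± 0.19, adjusted p = 0.00697). Oplah, an enzyme of the glutathione cycle named after its values were seen, had 139 CLIP counts and rose by 0.51 ± 0.08. Ttn, the giant muscle protein titin, rose by 4.66 ± 0.52, and skeletal muscle RNA moved with it: 7 muscle genes summed to 17.2 to 91.7 CPM in knockout pools and 0.501 to 0.990 in their controls, with all 7 detected in each knockout pool. Their part in the result was not tested. The count of 23 was 7, 15 and 10 without knockout pools 1, 2 and 3, and 29, 9 and 12 without C57BL/6NJ pools 1, 2 and 3, while Ttpa, Fam234b, Ctcflos, Ttn, Pex5 and Ppl were called in each of these fits.

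Of the 13 genes with the mooring sequence 1, Fasn, was among the 692, on 3 CLIP counts. Of all genes at 100 to 1000 CPM, 5.37% were among the 692. Fasn RNA fell in knockout livers from 1076, 884 and 866 CPM to 582, 437 and 694 (-0.72 ± 0.16, adjusted p = 0.0477). The groups did not overlap, but the call was lost without any of the 6 pools except knockout pool 3, with adjusted p-values of up to 0.189. In transgenic livers it had a log2 fold change of -0.55 ± 0.33 (adjusted p = 0.385) and in transgenic hepatocytes of 0.09 ± 0.16 (0.701). Apob, with the same 11 bases and no CLIP count, stood at 0.00 ± 0.11 in knockout livers (adjusted p = 0.999). A part of the mooring sequence in these values was not tested.

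The other recovered genes of fat synthesis did not pass in any of the 3 comparisons. Me1 had log2 fold changes of -0.12 ± 0.11 in hepatocytes, -0.21 ± 0.12 in transgenic livers and -0.13 ± 0.13 in knockout livers. Acaca and Srebf1 did not pass either, with adjusted p-values of at least 0.165. Of the 20 genes of the whole list, 5 rose and 1 fell in transgenic hepatocytes, 1 rose and 0 fell in transgenic livers, and 1 rose and 1, Fasn, fell in knockout livers, where 3.15, 1.33 and 2.98% of all tested genes were called. The hepatocyte calls over all genes rest on single pools, since 434 became 0 to 90 without any 1 pool other than transgenic pool 3, and 4934 without that pool. Of the 12 editing genes 0 passed in hepatocytes, A1cf fell in transgenic livers (-0.65 ± 0.11, adjusted p = 0.0369), and in knockout livers 1 rose and 1, A1cf, fell.

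**Figure D5:**
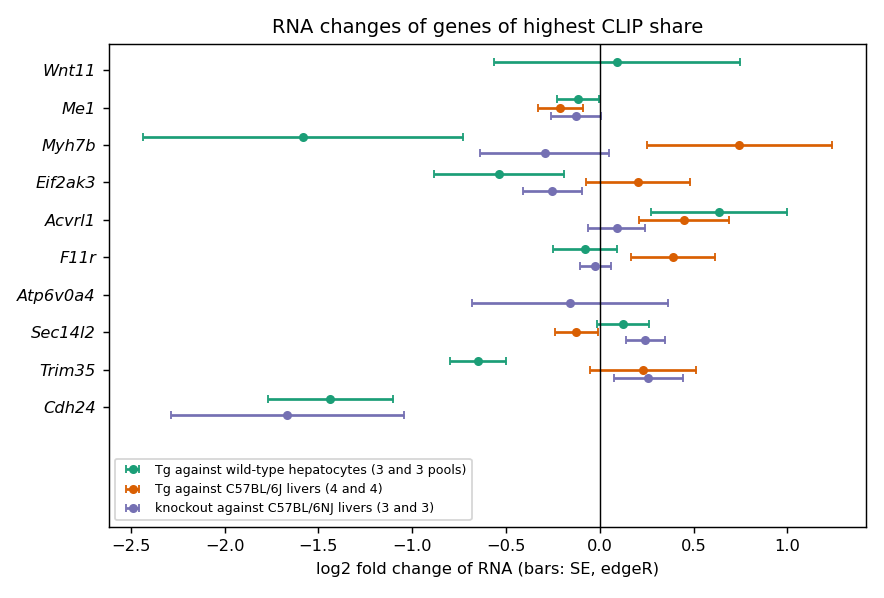
Log2 fold change of RNA with SE (edgeR) in the 3 comparisons for 10 of the 15 genes of highest CLIP share; each color is 1 comparison and the vertical line marks no change. None passed the threshold; Cdh24 and Trim35 in hepatocytes came nearest, at adjusted p-values of 0.0672 and 0.0671.

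Among the 15 genes of highest share, the closest to the threshold were in hepatocytes. Trim35 stood at 13.5, 14.3 and 11.8 CPM in transgenic and 21.2, 19.5 and 21.4 in wild-type pools (-0.65 ± 0.15, adjusted p = 0.0671). Cdh24 stood at 0.377, 0.385 and 0.305 CPM against 0.758, 0.952 and 1.20 (-1.44 ± 0.33, adjusted p = 0.0672), also without overlap. Wnt11, at 0.09 ± 0.66, had an estimate near 0 in hepatocytes, with a wide error at its low level. Pantr1, Zdhhc22, Tenm2 and Acer1 had too few RNA counts to be tested in any comparison. With simulated counts for hepatocytes, 32% of genes changed 2-fold and 84% of those changed 4-fold were recovered, so smaller changes could be missed. The changed genes were drawn at random over all levels, and no simulated pool was shifted as a whole. These percentages therefore do not give the recovery for low genes such as Wnt11 and Cdh24, or in the real pools.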

How the data were processed

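RNA-seq was read from 20 pools and CLIP-seq from 10 libraries, of which 5 CLIP libraries and the transgenic hepatocyte pools are the subject here. Per the submitters' processing notes the authors used bcl2fastq, STAR 2.0.4b, GRCm38 and featureCounts 1.45 of Subread. The strand setting, annotation release, handling of multi-mapping reads and of duplicates are not given in the sources used here. Raw read counts were deposited for each of 41388 genes, and these counts were analysed. The deposited CPM values are these counts scaled to a library total of 1000000, and recomputing them gave the same values within 4.95e-10. The deposited RPKM values divide by gene length and were not used. GENCODE M21 held 40340 of the identifiers, and 40244 overlapped their position there.

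CLIP shares are counts over the library total, averaged over libraries with equal weight. For ranking, a gene whose mean RNA level was under the floor of 3 counts over the transgenic pools (0.0312 CPM) was set to that floor. Intervals are 95% Wilson (shares) or exact Poisson (ratios) and cover counting error only, since PCR copies are not independent molecules. No gene was tested between CLIP and RNA or between CLIP libraries, because those contrasts chose the members, and the chi-square values between CLIP libraries are given as a description of their spread. RNA groups were compared pool against pool, each comparison on its own groups, with edgeR 4.0.16 in R 4.3.3 (filterByExpr, minimum count 10 and total 15, TMM, quasi-likelihood F-test, two-sided, Benjamini-Hochberg at 0.05), and with DESeq2 1.42.0 as an alternative. The fit was tested on simulated data. The p-values reflect variation among pools. The mooring sequence was read from the Apob transcript of M21, starting 5 bases after the edited cytidine.

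The members, lists and tests were chosen with earlier results of these data known. Genes named were the 15 highest by share and by ratio, the 10 highest in RNA, A1cf, Apob, Pantr1, Itpripl2, up to 4 members of highest share per list, and the 6 of smallest p per comparison among the CLIP genes. Others were chosen after their values were seen. Some genes of these lists are not reported here.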

Additional observations from a re-analysis of the deposited data

Results flagged for a closer look

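Some values stood apart from the rest of their group by Dixon's criterion, which was applied to 42 groups of 4 or 5 libraries for single genes and picked out 5. For independent, normally distributed values, chance alone picks out about 1 in 20 groups. Shares on few counts, such as those of Hnrnpab and Airn below, need not keep to that rate.

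Library 9 was low for 2 genes. Me1 took 3.05% of its counts against 5.31 to 6.15% in libraries 2, 5, 7 and 8, and Ptchd1 took 0.409% against 0.660 to 0.738%. Hnrnpab was high in library 2, at 0.0579% (4 counts) against 0 to 0.0163% in the other 4. Airn was high in library 8, at 0.1005% (7 counts) against 0.0434 to 0.0555%. In RNA, Svep1 was high in C57BL/6J liver pool 2, at 5.61 CPM against 2.25 to 2.65 CPM in the other 3 pools, the pool that also held skeletal muscle RNA.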

How the results depend on the processing

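The 15 genes of highest CLIP share were the same without any 1 CLIP library and under every alternative run except a total without Pantr1, which kept 14 of them, and the share per kilobase, which kept 12. The ratio ranking kept 13 to 15 of its 15. With a count required in all 5 CLIP libraries there were 244 genes, 187 of them at a ratio of 10 or more, and rho was -0.127. Without Pantr1 in the total, the 15 highest genes held 46.9% of the rest. Without 1 CLIP library or RNA pool at a time rho ran from -0.0986 to -0.0101. The CLIP genes called in hepatocytes, transgenic livers and knockout livers numbered 66, 51 (28 higher, 23 lower) and 37 with DESeq2 (1821, 1273 and 845 over all genes), and 4 of 175, 4 of 171 and 5 of 183 tested when a count in all 5 libraries was required. With no filter on low counts they numbered 20 in hepatocytes and 50 in knockout livers (669 and 1079 over all genes). Leaving out 1 pool gave 0 to 185, 0 to 18 and 7 to 29 (0 to 4934, 27 to 561 and 137 to 645 over all genes). The causes were not tested. With replicate number as a block 0, 0 and 16 were called (21, 44 and 415 over all genes). The labels do not pair equal numbers (correlations of deviations 0.686, -0.506 and -0.0308 in hepatocytes, -0.15 to 0.0451 in transgenic livers and 0.00767 to 0.0575 in knockout livers). Averaging libraries 2, 5, 7 and 8 as 1 sample, other Pantr1 thresholds and the share per kilobase were chosen after seeing the data. Single-gene fold changes kept their direction under all alternatives, 82 times losing the call and 120 times keeping it. With 6151 to 7209 counts per CLIP library, a share of 0 in 1 library allows up to 0.0488%.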
